A study of Mus musculus with 8 samples.

Results

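Transcripts of 10 cyclic nucleotide phosphodiesterase genes were followed across the cell types of the mouse iris and across 3 pupil conditions. The members were Pde1a, Pde1c, Pde3a, Pde3b, Pde4b, Pde4d, Pde7a, Pde7b, Pde8b and Pde10a, taken by gene symbol, and all 10 were found among the 22873 genes of the count table. They were chosen by their measured levels across cell types and their response to pupil dilation in these same libraries. Both are therefore only described. The dilation calls of members use an adjusted p as a limit and serve as labels, not as support. Single nucleus RNA-seq had been carried out on 34357 nuclei in 8 libraries: 3 untreated, 3 constricted and 2 dilated.

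All libraries came from adult wild type mice, which the study describes as albino females, and each library pooled the irises of several animals together with a variable amount of ciliary body. By the study's account, treatment lasted several hours before the eyes were taken. Dilated mice received hourly eye drops of phenylephrine, an alpha-adrenergic agonist, and cyclopentolate, a muscarinic antagonist, and were kept in the dark. Constricted mice received hourly drops of pilocarpine, a muscarinic agonist, and were kept in the light. Drug, lighting and pupil size therefore cannot be told apart in either comparison. Each nucleus carried a deposited cell type, and there were 10 of them: dilator muscle, sphincter 1, sphincter 2, stroma 1, stroma 2, iris pigment epithelium (iris PE), ciliary body (CB), ciliary body epithelium (CBE), leukocytes and endothelial cells. In a check of these names, 5 or 6 of 6 marker genes were highest in their own cell type for every type. Most of these markers had been picked on the same libraries. Pde10a is itself a published marker of the CB cluster and Pde1a of the CBE cluster.

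Levels are given in CPM: unique molecular identifiers (UMIs) were summed over the nuclei of a cell type in a library, and each sum was scaled to the usual common total. Library totals ran from 5189437 to 25136427 UMIs. The number of nuclei behind a sum ran from 12 (endothelial cells) to 2567 (dilator muscle). The rare cell types therefore carry the largest counting error. Cell barcodes recurred between libraries more often in 1 pair than in any other: 63 barcodes, 4.26% of those of untreated replicate 1, were also in dilated replicate 1, and 59 of the 63 had the same cell type in both. Their median was 5479 UMIs in untreated replicate 1 and 960 UMIs in dilated replicate 1. Untreated replicate 1 and constricted replicate 1 shared 14 barcodes, 13 of them with the same cell type, at medians of 6035.5 and 841.5 UMIs. Constricted replicate 1 and dilated replicate 1 shared 18, of which 11 had the same cell type. Leaving out all 400 nuclei with a barcode found in 2 libraries kept the count of member calls reported below for dilation at 21.

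Phosphodiesterases end cyclic nucleotide signals by hydrolysing cAMP, cGMP or both, and so oppose the adenylyl and guanylyl cyclases. In smooth muscle, cyclic nucleotides act mainly through protein kinases A and G and favour relaxation. The members come from 6 families. The PDE1 enzymes are stimulated by calcium and calmodulin and cleave both nucleotides, PDE3 enzymes cleave cAMP and are inhibited by cGMP, and PDE4, PDE7 and PDE8 enzymes are selective for cAMP. PDE10A cleaves both nucleotides and is best known from the medium spiny neurons of the striatum.

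All 10 genes encode the catalytic signature that defines the class I phosphodiesterases. The coding stretch of 36 bases that carries it is shown for each member because genes that share this signature, down to pairs within a family, had different levels and responses in the iris. Each was read from the GENCODE vM21 transcript with the longest coding sequence, lies within 1 exon on mm10 and is written 5′ to 3′. Capitals mark the 4 codons of the signature that anchor the match.

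Pde1a (chr2:79887855-79887890, minus strand): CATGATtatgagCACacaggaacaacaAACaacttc
Pde1c (chr6:56158941-56158976, minus strand): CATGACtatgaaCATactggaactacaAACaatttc
Pde3a (chr6:141487899-141487934, plus strand): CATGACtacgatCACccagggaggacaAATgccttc
Pde3b (chr7:114526921-114526956, plus strand): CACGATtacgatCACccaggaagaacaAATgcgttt
Pde4b (chr4:102599694-102599729, plus strand): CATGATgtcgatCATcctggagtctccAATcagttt
Pde4d (chr13:109939313-109939348, plus strand): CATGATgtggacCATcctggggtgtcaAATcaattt
Pde7a (chr3:19233715-19233750, minus strand): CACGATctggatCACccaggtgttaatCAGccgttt
Pde7b (chr10:20434504-20434539, minus strand): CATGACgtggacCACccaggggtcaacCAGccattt
Pde8b (chr13:95034300-95034335, minus strand): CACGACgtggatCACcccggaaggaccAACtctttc
Pde10a (chr17:8967449-8967484, plus strand): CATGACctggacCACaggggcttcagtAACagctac

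Of the 36 bases, 28 to 30 were shared within the 4 pairs of the same family (median 30). Between families, 15 to 26 bases were shared (median 21, 41 pairs). The stretches were found by the signature, so part of this sharing is set by the search.

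In the untreated iris 8 of the 10 members had a cell type that stood apart. The members were picked by such levels and the share over all genes was not taken, so nothing is read from this count. Pde1c and Pde1a were highest in CBE, Pde3a in stroma 2, Pde3b in leukocytes, Pde4d in sphincter 2, Pde7b in stroma 1 and Pde10a in CB. In none of these did the 3 untreated libraries overlap with those of the cell type next in order. Pde8b was highest in stroma 2 as well, and only narrowly apart from the next type, leukocytes. Its lowest stroma 2 library was at 33.8 CPM and its highest leukocyte library at 33.1 CPM, the latter on 1 UMI. Pde7a and Pde4b had no such single site. Their highest cell types, dilator muscle and stroma 1, overlapped with the next.

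The PDE1 genes were both highest in CBE but not confined to it. In CBE, Pde1c was at 3598, 3647 and 3779 CPM in the 3 untreated libraries, against 1343 ± 61.5 CPM (SD, n = 3) in iris PE, the next in order. Pde1a in CBE was at 1025, 1501 and 1524 CPM, against 425 ± 85.2 CPM in sphincter 2. Pde1c was present at more than 200 CPM on average in every cell type, whereas Pde1a was at 9.8 ± 4.3 CPM in stroma 1.

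The PDE3 pair was split between cell types. Pde3a was at 699, 827 and 870 CPM in stroma 2, followed by sphincter 1 with 229 ± 58.8 CPM, and was lowest in stroma 1 with 4.6 ± 3.1 CPM. For Pde3b the values in leukocytes were 232, 424 and 433 CPM, on 7, 112 and 70 UMIs, and the next cell type, sphincter 2, held 49.5 ± 14.4 CPM. Below it, sphincter 1, dilator muscle and CB overlapped with one another in that order, at 10.0 to 16.5 CPM on average.

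The PDE4 pair differed in breadth. Pde4d, which spans 1503.514 kb, was at 4517, 4079 and 4145 CPM in sphincter 2, at 2748 ± 44.5 CPM in dilator muscle and at 2355 ± 186 CPM in sphincter 1, and these 3 muscle types did not overlap. Its lowest level was 382 ± 19.5 CPM in stroma 2. Pde4b was at 142, 105 and 105 CPM in stroma 1, overlapping with leukocytes at 112 ± 79.4 CPM, and was at 11.5 ± 6.9 CPM or less in both sphincter types, dilator muscle and iris PE.

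The PDE7 pair differed too. Pde7b was at 1539, 1313 and 1389 CPM in stroma 1, and then at 384 ± 107 CPM in endothelial cells and 329 ± 32.9 CPM in stroma 2, which overlapped. Pde7a ranged only from 70.0 ± 16.3 CPM in endothelial cells to 204 ± 34.7 CPM in dilator muscle, and every neighbour in its order of 10 cell types overlapped with the next.

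Pde8b was at 33.8, 50.0 and 53.2 CPM in stroma 2, and leukocytes came next with 29.4 ± 4.3 CPM, on 13 UMIs in all. No UMI of Pde8b was counted in untreated endothelial cells, where 3 counts would be 7.82 CPM. Pde10a was at 633, 558 and 527 CPM in CB, at 240 ± 125 CPM in CBE and at 154 ± 57.0 CPM in stroma 1. Means in the remaining 7 cell types lay between 15.9 and 35.9 CPM, lowest in iris PE, and neighbours in that order overlapped.

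Levels of different genes were compared after division by gene length, as the counts include reads from introns. The length taken was that of the whole annotated gene (461.277 kb for Pde10a), whichever start a transcript uses. UMIs of introns and exons were not told apart, so this scale is an assumption. The order of the members differs without it. On that scale, CPM per 100 kb of gene, the highest member in untreated dilator muscle was Pde7a at 231 CPM per 100 kb, or 34.4% of the sum over the 10 members, followed by Pde4d at 183 and Pde1c at 104. Pde10a came at place 8 of the 10 there, at 4.40 CPM per 100 kb. Pde1c was the highest member in iris PE, CB, CBE and sphincter 1, Pde4d in sphincter 2, Pde7b in stroma 1 and endothelial cells, Pde3a in stroma 2 and Pde3b in leukocytes.

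**Figure D1:**
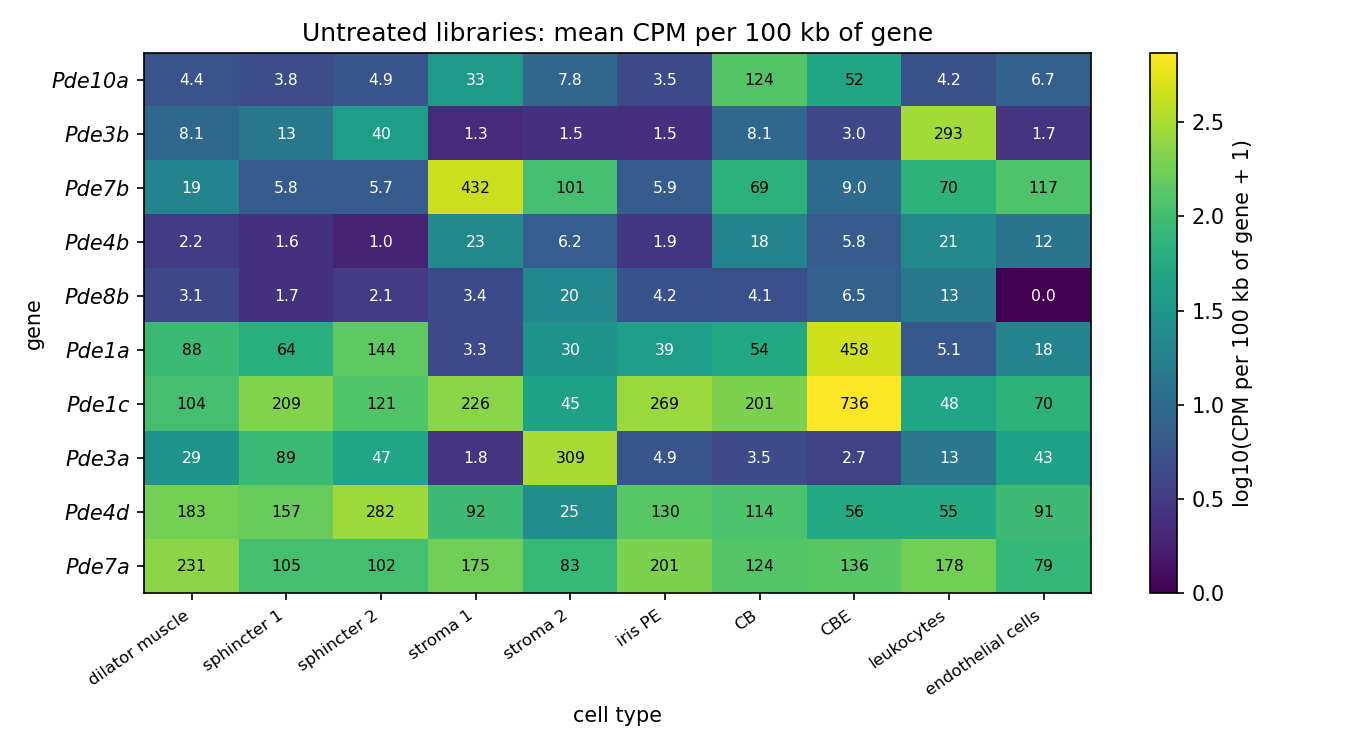
Mean CPM per 100 kb of gene over the 3 untreated libraries for the 10 members (rows) in the 10 cell types (columns), with colour on a log10 scale after adding 1. The brightest cells are Pde1c and Pde1a in CBE and Pde7b in stroma 1, and Pde10a reaches 124 in CB against 4.4 in dilator muscle.

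Pupil dilation was compared with no treatment in the same libraries. A gene counted as called in a cell type at an absolute log2 fold change above 0.6 with an adjusted p under 0.05 in edgeR's quasi-likelihood test, fitted over all genes of the cell type. The fits scaled libraries with TMM factors, which CPM do not include, and overlap of libraries was judged on CPM only. The 2 scales can differ: Pde3a in dilator muscle had means of 76.0 CPM untreated and 74.6 CPM dilated at a log2 fold change of 0.18. Of the 100 pairs of a member and a cell type, 74 had enough counts to be tested. In dilated irises 21 of the 74 pairs were called higher and 0 lower, beside 1.87% higher and 1.47% lower among all 85092 pairs of a gene and a cell type tested. The higher calls were of 6 genes: Pde10a in 7 cell types, Pde3b in 6, Pde4b in 3, Pde7b and Pde1c in 2 each and Pde8b in 1. Their number describes genes picked for this response, and nothing is read from it.

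By cell type, 5 of 10 members tested were called higher in dilator muscle, beside 7.2% higher and 6.14% lower among all its genes. Iris PE had 4 of 10 (all genes 0.453% higher, 0.142% lower), leukocytes 3 of 6 (0.76% and 0.562%) and stroma 2 had 2 of 10 (1.35% and 0.383%). Sphincter 1 had 2 of 7 (0.633% and 1.32%), sphincter 2 also 2 of 7 (1.46% and 1.4%), CB 2 of 8 (0.0665% and 0%) and stroma 1 had 1 of 6 (0.786% and 0.382%). Under edgeR no member was called in CBE (0.0122% and 0%) or endothelial cells (0% and 0%). DESeq2 called 1 in endothelial cells, Pde7b, and 0 in CBE. An unadjusted p under 0.05 in edgeR was reached by 3 members in CBE and 1 in endothelial cells, without a share of all genes beside it. The median log2 fold change was 0.43 over the 74 pairs and 0.002 over all pairs.

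**Figure D2:**
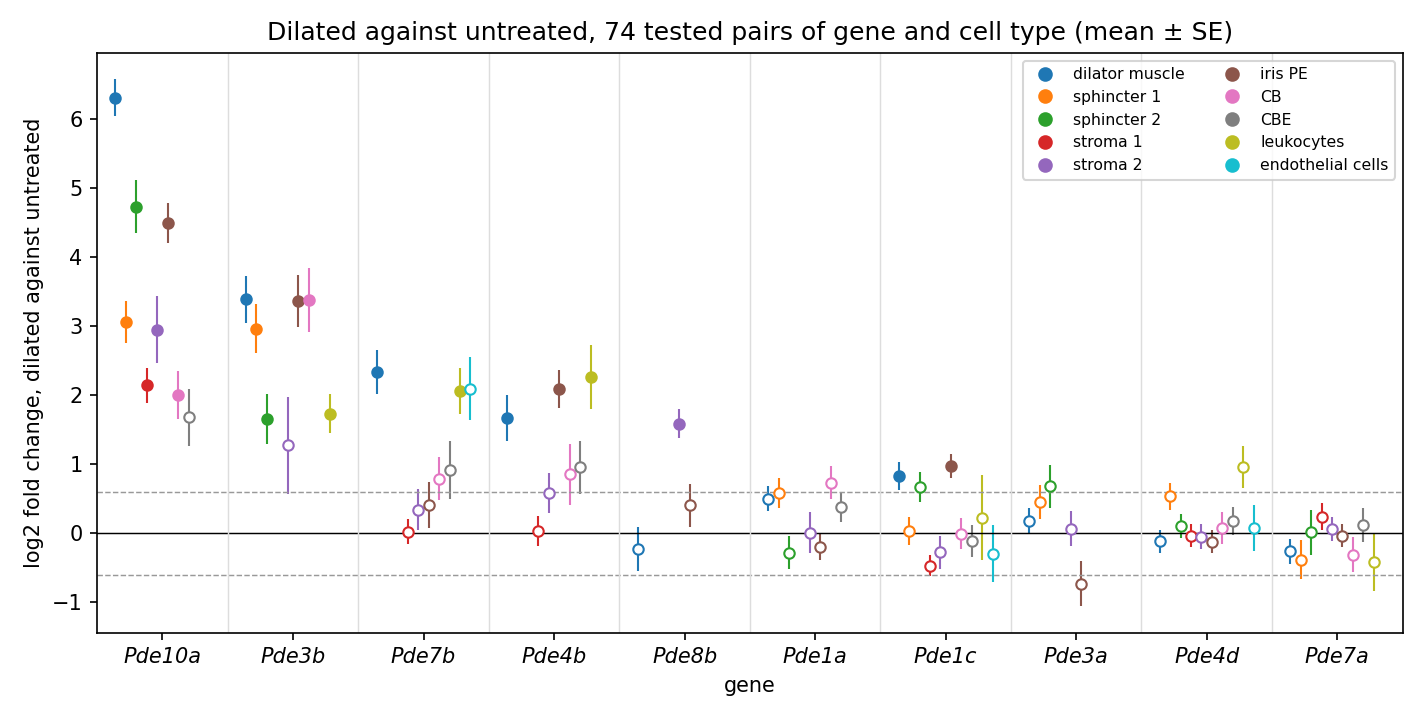
Log2 fold change of dilated against untreated libraries, with its standard error as a bar, for each member (horizontal axis) in each cell type in which it was tested (colour). Filled symbols passed the threshold (dashed lines at 0.6 and -0.6 for the fold change), and all 21 of these lie above 0, from 0.83 for Pde1c to 6.30 for Pde10a in dilator muscle.

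Pde10a changed most. In dilator muscle its level was 27.4, 17.6 and 15.8 CPM in the untreated libraries and 1305 and 1338 CPM in the dilated libraries, on 44 to 125 and on 13222 and 6679 UMIs. The fitted log2 fold change was 6.30 ± 0.26 (SE), the fourth largest of 15395 genes tested in dilator muscle. The groups were far apart and both dilated libraries were alike. Nuclei were also thinned to 1000 UMIs, which kept 3870 of 3873 dilated and 4331 of 4357 untreated dilator nuclei. A Pde10a UMI was found in 54.9% of the former and in 1.82% of the latter (78.8% and 5.30% before thinning). In leukocytes, where the untreated level was as low, the thinned shares were 16.0% of 94 dilated and 0.562% of 178 untreated nuclei. Before thinning there were 102 and 193 leukocytes. Single libraries ran from 9.4% to 19.4% dilated and from 0% to 1.01% untreated. The median depth per library was 3026 to 5299 UMIs in dilator nuclei and 1590 to 3277 UMIs in leukocytes.

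In sphincter 2, Pde10a was at 45.8, 2.1 and 19.3 CPM in the untreated and at 393 and 392 CPM in the dilated libraries (log2 fold change 4.72 ± 0.38). Sphincter 1 had 10.8, 20.7 and 20.8 CPM untreated and 177 and 148 CPM dilated (3.06 ± 0.31), and the log2 fold change was 2.29 without the nuclei that Scrublet marked as doublets, 7.02% of the nuclei of sphincter 1. Pde10a had the largest log2 fold change of all genes tested in both sphincter types and in iris PE. In the latter it was at 18.4, 14.1 and 15.3 CPM and, dilated, at 383 and 296 CPM (4.49 ± 0.29).

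The stroma responded as well. Stroma 2 held 33.8, 40.3 and 33.4 CPM of Pde10a untreated and 260 and 283 CPM dilated, a log2 fold change of 2.94 ± 0.49, which lost its call without untreated replicate 2 (3.07) or 3 (2.88). In stroma 1 the level went from 190, 183 and 88.1 CPM to 774 and 540 CPM (2.14 ± 0.25). In all these cell types both dilated libraries lay above all 3 untreated ones.

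The ciliary body gave the least even values. In CB, which had the highest untreated level, Pde10a was at 3485 CPM in dilated replicate 1 but at 990 CPM in dilated replicate 2 (log2 fold change 2.00 ± 0.35), and without dilated replicate 1 (0.85), untreated replicate 2 (1.98) or untreated replicate 3 (1.96) the pair was no longer called. In CBE, dilated replicate 1 was at 1113 CPM, and replicate 2, at 313 CPM, lay within the untreated range of 159 to 384 CPM. The pair was not called there (1.68 ± 0.41). Leukocytes (242 and 79.3 CPM dilated, 6.2 to 33.1 CPM untreated) and endothelial cells (85.1 and 124 CPM against 19.4 to 50.6 CPM) had too few UMIs to be tested, and in both the dilated libraries were above the untreated ones.

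Dilator nuclei contributed the most Pde10a UMIs of any cell type in dilated irises. The 6 dilator markers (Adra1a, Nos1, Chrm2, Cit, Sv2b and Mapk4) therefore stand beside the rise elsewhere. Their summed level in iris PE was 97.0 to 134 CPM untreated and 112 to 139 CPM dilated, none of the 6 being at 0. In stroma 2 it was 65.1 to 72.5 CPM and 30.4 to 79.5 CPM. In dilated dilator muscle itself, 0.568 and 0.666 Pde10a UMIs were counted for each dilator marker UMI. This ratio was 2.76 and 2.65 in iris PE, 3.27 and 9.33 in stroma 2 and 12.1 and 23.1 in stroma 1, but 0.378 and 0.413 in sphincter 1 and 0.265 and 0.367 in sphincter 2. The study reports transcripts of the alpha-adrenergic receptor among these markers in some sphincter cells too. Markers made by sphincter cells themselves would enter this ratio as well. In leukocytes the ratio was 1.00 and 0.333, on 6 to 37 UMIs of either kind. Scrublet marked 8.53% of leukocytes and 6.23% of endothelial cells as doublets, against 0.993% of all nuclei. The ratio is not given here for CB, CBE and endothelial cells. Whether RNA of dilator cells has a part in the values of any other cell type was not tested.

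**Figure D3:**
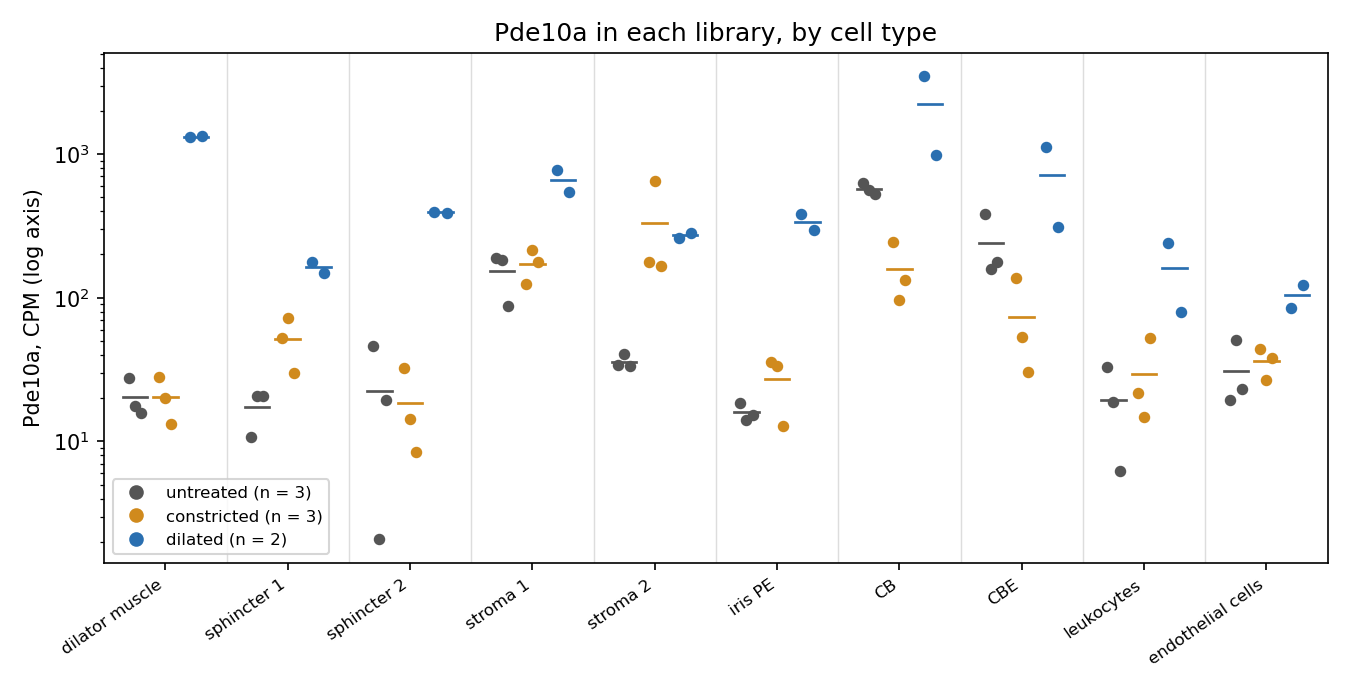
Pde10a level in CPM (log axis) in each library (points) and the mean of each condition (short lines) for the 10 cell types. Both dilated libraries are above every untreated library in 9 cell types, the exception being CBE, and the 3 constricted libraries are above the untreated ones in stroma 2 and below them in CB.

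The library names carry numbers that fall into consecutive series, whose relation to the study's collection batches the labels do not give, and the first and the last series hold both untreated and dilated libraries. Within the first series, Pde10a in dilator muscle was 47.6 times as high in the dilated as in the untreated library, and within the last 80.1 times as high as the mean of the untreated libraries. The ratios were 20.8 and 20.1 in iris PE, 7.68 and 7.68 in stroma 2, 4.07 and 3.98 in stroma 1 and 5.51 and 1.83 in CB.

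Upstream windows of Pde10a (chr17:8525372-8986648, plus strand) are shown because this gene changed most. They are the bases before its RefSeq starts on GRCm38.p6, up to 250 of them and ending before any exon annotated in GENCODE. Both windows lie inside the gene as annotated in GENCODE. The bases before its annotated 5′ end at 8525372 were not searched. Capitals mark a GC box, GGGCGG on either strand.

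Pde10a, window A (chr17:8801495-8801692, plus strand): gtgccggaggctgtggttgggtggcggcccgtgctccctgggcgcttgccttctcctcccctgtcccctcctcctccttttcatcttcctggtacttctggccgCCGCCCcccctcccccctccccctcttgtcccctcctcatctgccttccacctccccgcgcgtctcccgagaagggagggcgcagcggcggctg
Pde10a, window B (chr17:8849735-8849984, plus strand): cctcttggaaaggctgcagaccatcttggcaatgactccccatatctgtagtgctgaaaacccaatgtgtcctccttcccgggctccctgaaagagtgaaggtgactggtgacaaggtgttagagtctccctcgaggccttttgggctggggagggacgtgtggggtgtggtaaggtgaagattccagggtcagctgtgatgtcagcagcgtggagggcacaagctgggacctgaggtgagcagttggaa

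Window A, 70.7% G and C, held the GC box and 13 CpG dinucleotides, and window B, at 56.0%, held 4 CpG. The median G and C share of all 32851 windows of 250 bases was 52.4%. Neither window of Pde10a held the full cAMP response element TGACGTCA, its core TGACG, an AP-1 site TGANTCA or an EGR1 site GCGNGGGCG, searched on both strands. Of all windows of 250 bases, 1.55% held the first, 17.8% the core, which is part of it, 6.75% the AP-1 site, 4.70% the EGR1 site and 32.7% the GC box. Windows were found for 7 of the 10 members, 20 in all. In these the full element was absent, the core was in Pde1a and Pde4b, the AP-1 site in Pde1c, the EGR1 site in Pde8b and the GC box in Pde10a and Pde8b. Pde3a, Pde3b and Pde7a had no entry.

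Pde3b, a cAMP phosphodiesterase known from insulin signalling in adipocytes, was called higher in dilator muscle, both sphincter types, iris PE, CB and leukocytes. In dilator muscle it was at 15.6, 8.4 and 6.2 CPM untreated and at 60.1 and 102 CPM dilated (log2 fold change 3.38 ± 0.33). Iris PE had 1.7, 2.2 and 1.6 CPM untreated, on 2 to 11 UMIs, and 14.4 and 24.3 CPM dilated (3.37 ± 0.38). In CB the values were 17.3, 5.9 and 6.8 CPM, on 2 to 6 UMIs, and 82.0 and 131 CPM (3.38 ± 0.46).

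Sphincter 1 had 16.1, 20.7 and 12.6 CPM of Pde3b and, dilated, 101 and 143 CPM (2.96 ± 0.35). In sphincter 2, with 64.1, 35.4 and 48.9 CPM untreated, the dilated libraries were at 81.5 and 187 CPM (1.65 ± 0.36), a call lost without dilated replicate 2 (0.85), untreated replicate 2 (1.45) or untreated replicate 3 (1.73). Leukocytes, in which the gene was highest, rose from 232 to 433 CPM to 1194 and 1347 CPM (1.73 ± 0.28). The dilated libraries were above the untreated ones in all 6. In dilator muscle the ratio of dilated to untreated was 3.86 within the first series of libraries and 13.9 within the last. The leukocyte markers (Ptprc, Csf1r, Mrc1, F13a1, Cd74 and Dock2) summed to 13.4 to 24.3 CPM in untreated and 7.0 to 15.8 CPM in dilated dilator muscle.

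Its family partner Pde3a was not called in any of the 5 cell types tested, with log2 fold changes from -0.73 to 0.68. In stroma 2, where it was highest, Pde3a was at 963 and 671 CPM in the dilated libraries, on either side of the untreated range (0.07 ± 0.26).

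Pde4b, an inducible cAMP phosphodiesterase of immune cells, was called in 3 cell types. In dilator muscle it was at 19.3, 8.9 and 6.3 CPM untreated and at 29.6 and 26.4 CPM dilated (1.67 ± 0.34). Iris PE had 14.2, 8.8 and 6.9 CPM, then 30.8 and 44.2 CPM (2.09 ± 0.28). In leukocytes the values were 33.1, 110 and 192 CPM, on 1, 29 and 31 UMIs, and 366 and 911 CPM (2.26 ± 0.46). Without dilated replicate 2 neither iris PE (1.77) nor leukocytes (1.47) was called, nor iris PE without untreated replicate 3 (1.87) or leukocytes without untreated replicate 2 (2.11). In stroma 1, where untreated Pde4b was highest, the dilated libraries at 113 and 120 CPM lay within the untreated range (0.03 ± 0.22).

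Pde4d, a cAMP phosphodiesterase with many isoforms, was not called in any of 10 cell types. In dilator muscle both dilated libraries, at 2157 and 2266 CPM, were below the untreated 2720 to 2800 CPM (log2 fold change -0.12 ± 0.16). In sphincter 1 both were above, at 3365 and 3263 CPM against 2239 to 2570 CPM (0.53 ± 0.19). Sphincter 2 stayed within the untreated range, at 4256 and 4330 CPM (0.10 ± 0.18).

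Pde7b was called in dilator muscle and leukocytes. Dilator muscle had 75.4, 64.7 and 42.9 CPM untreated and 375 and 164 CPM dilated (2.34 ± 0.32). Leukocytes had 265, 243 and 180 CPM and then 1057 and 740 CPM (2.06 ± 0.33). In endothelial cells a log2 fold change of 2.09 ± 0.46 was not called, with 310, 335 and 506 CPM untreated and 2270 and 1195 CPM dilated. Dilated replicate 1 was the higher in each. In stroma 1, its main site, Pde7b was at 1865 and 992 CPM in the dilated libraries, on either side of the untreated 1313 to 1539 CPM.

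Pde7a was not called in any of 9 cell types, with log2 fold changes from -0.42 to 0.24. In dilator muscle, where it was highest, both dilated libraries lay below the untreated ones, at 148 and 153 CPM against 166 to 234 CPM (-0.26 ± 0.18).

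**Figure D4:**
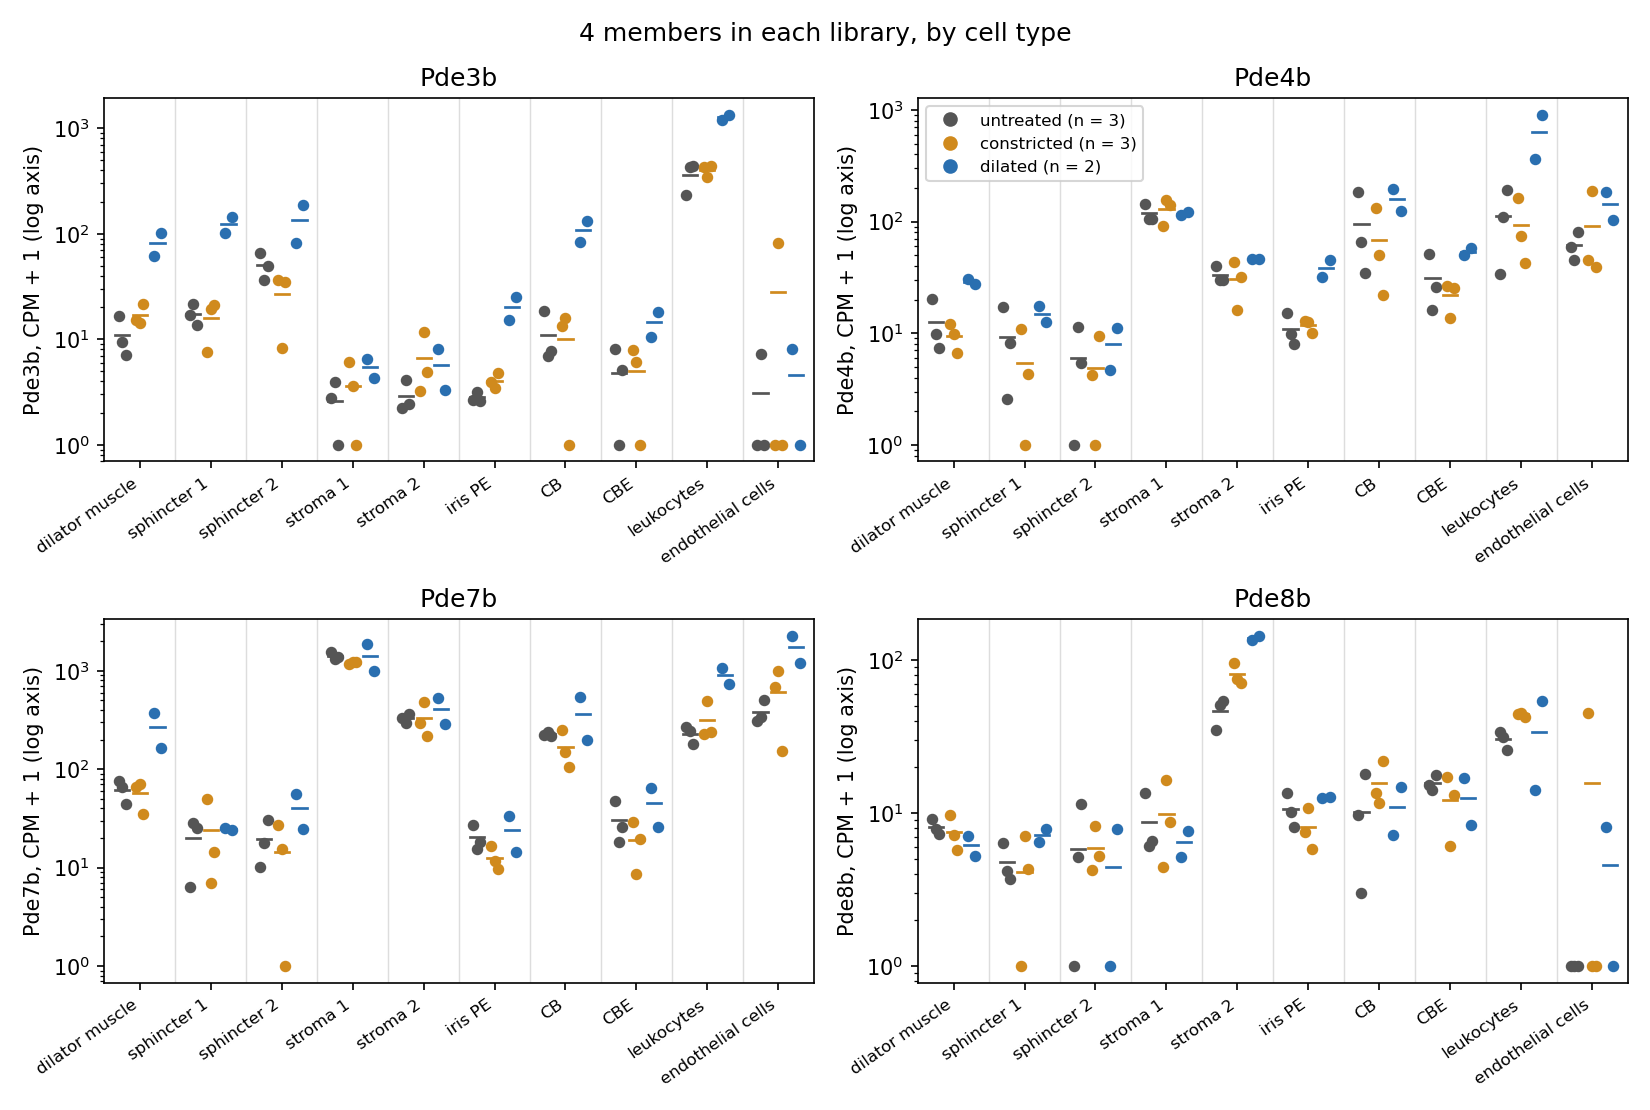
Level of Pde3b, Pde4b, Pde7b and Pde8b in each library, as CPM with 1 added, on a log axis, with the mean of each condition as a short line. Dilated libraries are above untreated ones for Pde3b, Pde4b and Pde7b in dilator muscle and leukocytes and for Pde8b in stroma 2, and points at 1 are libraries with 0 UMIs.

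Pde8b, a cAMP phosphodiesterase of high affinity, was called in stroma 2 only, among 3 cell types tested. There it was at 33.8, 50.0 and 53.2 CPM untreated and at 133 and 143 CPM dilated (1.58 ± 0.21). The dilated to untreated ratio was 3.94 in the first and 2.77 in the last series of libraries. In dilator muscle both dilated libraries, at 6.1 and 4.2 CPM, were below the untreated 6.3 to 8.1 CPM.

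Of the calcium-stimulated pair, only Pde1c was called, in 2 of 10 cell types tested. In iris PE it was at 1411, 1292 and 1325 CPM untreated and at 2886 and 2228 CPM dilated (0.97 ± 0.17), and in dilator muscle at 625, 472 and 462 CPM and at 918 and 693 CPM (0.83 ± 0.20). The call in iris PE was lost without any 1 of the 5 untreated and dilated libraries (0.82 to 1.11), and that in dilator muscle without dilated replicate 1 (0.69), untreated replicate 2 (0.79) or untreated replicate 3 (0.76). In CBE, its main site, it was at 3607 and 2991 CPM dilated (-0.11 ± 0.23). In stroma 1 both dilated libraries, at 801 and 807 CPM, were below the untreated 1014 to 1238 CPM (-0.47 ± 0.16), a pair that was not called. In sphincter 2, with 600 to 612 CPM untreated and 926 and 899 CPM dilated, the pair just missed the threshold (0.67 ± 0.22). Pde1a was not called in any of 7 cell types, with log2 fold changes from -0.28 to 0.73.

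With these changes the order of the members per length of gene differed between conditions. In dilated dilator muscle Pde10a was the first of the 10, at 287 CPM per 100 kb or 27.0% of their sum, ahead of Pde7a at 171 and Pde1c at 161. In dilated CB it was first too, at 485 CPM per 100 kb, a mean that rests on the unequal values of 3485 and 990 CPM given above. In dilated leukocytes Pde3b was at 1025 and Pde7b at 275 CPM per 100 kb, against 293 and 70.0 untreated, and in dilated endothelial cells Pde7b was at 530 against 117. In stroma 1, stroma 2 and iris PE the first member was Pde7b, Pde3a and Pde1c, as in untreated libraries.

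Constriction was compared with no treatment in the same fits. The genes were chosen with earlier results of these data known, among them Pde10a in stroma 2. The p-values of members for constriction, here and below, are therefore descriptive. No pair of a member and a cell type out of 74 was called in edgeR's quasi-likelihood test, beside 0.0094% called higher and 0.00235% lower among all 85092 pairs. At an unadjusted p under 0.05 in edgeR there were 13 pairs. The share of all genes at that limit is not given here, so nothing is read from this count. DESeq2 called 2 pairs. With the library series as a block, 4 pairs were called: Pde10a in stroma 2, CB and CBE, and Pde1a in CBE. Constricted replicate 2 is alone in its series, so under this block it does not inform the constriction effect. The calls of all genes under this block are given in the last section, and nothing is read from these 4 pairs. Libraries of the same series deviated together in dilator muscle (correlations of 0.133 to 0.602), stroma 2 (0.111 to 0.637) and iris PE (0.127 to 0.639). Calls among all genes were confined to 4 of the cell types: 0.0065% higher in dilator muscle, 0.0156% higher in stroma 2, 0.00708% higher in iris PE, and 0.0598% higher and 0.0299% lower in sphincter 2. The constricted libraries lay all above the untreated ones in 6 of the 74 pairs and all below in 5. The share of such pairs over all genes was not taken, and nothing is read from these counts.

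Pde10a again had the largest values. In stroma 2 it was at 176, 645 and 167 CPM in the constricted libraries against 33.4 to 40.3 CPM untreated, all 3 above. The log2 fold change, 3.18 ± 0.47, was the largest of 12788 genes tested in stroma 2, although constricted replicate 2 was far above the other constricted libraries. Over all settings it ran from 2.23 to 3.49, with 2.27 under the block on the library series, in which constricted replicate 2 does not inform it. Its adjusted p of 0.0546 (edgeR) missed the threshold. Pde10a was called there under 10 of 18 settings, among them every fit that left out a constricted or a dilated library, and the adjusted p ranged from 4.0e-48 to 0.450. Without untreated replicate 1, 2 or 3 it was not called. The constricted to untreated ratio was 5.20 within the first series of libraries and 4.54 within the last. Without nuclei whose barcode was found in 2 libraries, the log2 fold change was 3.15. The dilator markers in stroma 2 summed to 23.7 to 68.4 CPM in constricted and 65.1 to 72.5 CPM in untreated libraries.

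In CB the direction was opposite. Constricted libraries were at 244, 96.3 and 133 CPM of Pde10a against 527 to 633 CPM untreated, all 3 below (log2 fold change -1.82 ± 0.36, edgeR adjusted p = 0.220). This pair was called lower under 6 of 18 settings, among them both blocks and the fits without dilated replicate 1 or 2, with adjusted p from 4.4e-09 to 0.818. CBE had 137, 53.1 and 30.5 CPM against 159 to 384 CPM untreated, again all below (-1.48 ± 0.45, edgeR adjusted p = 0.369), and was called lower under 3 of 18 settings. In sphincter 1 all 3 constricted libraries, at 52.7, 72.6 and 29.9 CPM on 9 to 16 UMIs, were above the untreated ones (1.32 ± 0.37, edgeR adjusted p = 0.302). In dilator muscle the constricted libraries, at 28.3, 19.9 and 13.3 CPM, overlapped with the untreated ones (0.13 ± 0.25, from -0.21 to 0.37 over all settings).

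The constriction effect was compared between the 3 cell types with the most nuclei, with a term for each library. For Pde10a it was larger in stroma 2 than in dilator muscle by 2.66 ± 0.41 on the log2 scale (edgeR adjusted p = 0.0182), and larger than in iris PE by 2.04 ± 0.37 (edgeR adjusted p = 0.0293). Of all genes tested in these comparisons, 0.019% were called higher and 0.0317% lower in the former, and 0.085% higher and 0.0588% lower in the latter. Without constricted replicate 3, untreated replicate 2 or untreated replicate 3, neither difference was called, and without untreated replicate 1 or constricted replicate 2 only 1 of them was. The difference between dilator muscle and iris PE, -0.59 ± 0.24, was not called (edgeR adjusted p = 0.741, with 0.0184% of genes called higher and 0.0123% lower), nor was any of the other 9 members in the 3 comparisons.

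Among the other members, Pde1a in CBE came nearest, at 2327, 2607 and 2815 CPM constricted against 1025 to 1524 CPM untreated (0.96 ± 0.20, edgeR adjusted p = 0.0992). It was called higher under 5 of 18 settings (DESeq2, both blocks, no filter on low counts and without dilated replicate 1), with adjusted p from 0.00096 to 0.601. The number of photoreceptor marker UMIs moved with it: 5 of the 6 photoreceptor markers are in the table, and they summed to 97.5 to 223 CPM in constricted and 58.2 to 92.6 CPM in untreated CBE, with 2 and 3 of the 5 at 0. Their part in the result was not tested. Pde8b in stroma 2 was at 95.3, 74.3 and 69.5 CPM against 33.8 to 53.2 CPM untreated (0.75 ± 0.20, edgeR adjusted p = 0.501). Pde1c in endothelial cells was at 133, 26.7 and 153 CPM, on 6, 1 and 4 UMIs, against 310 to 380 CPM untreated (-1.83 ± 0.49, edgeR adjusted p = 0.129).

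**Figure D5:**
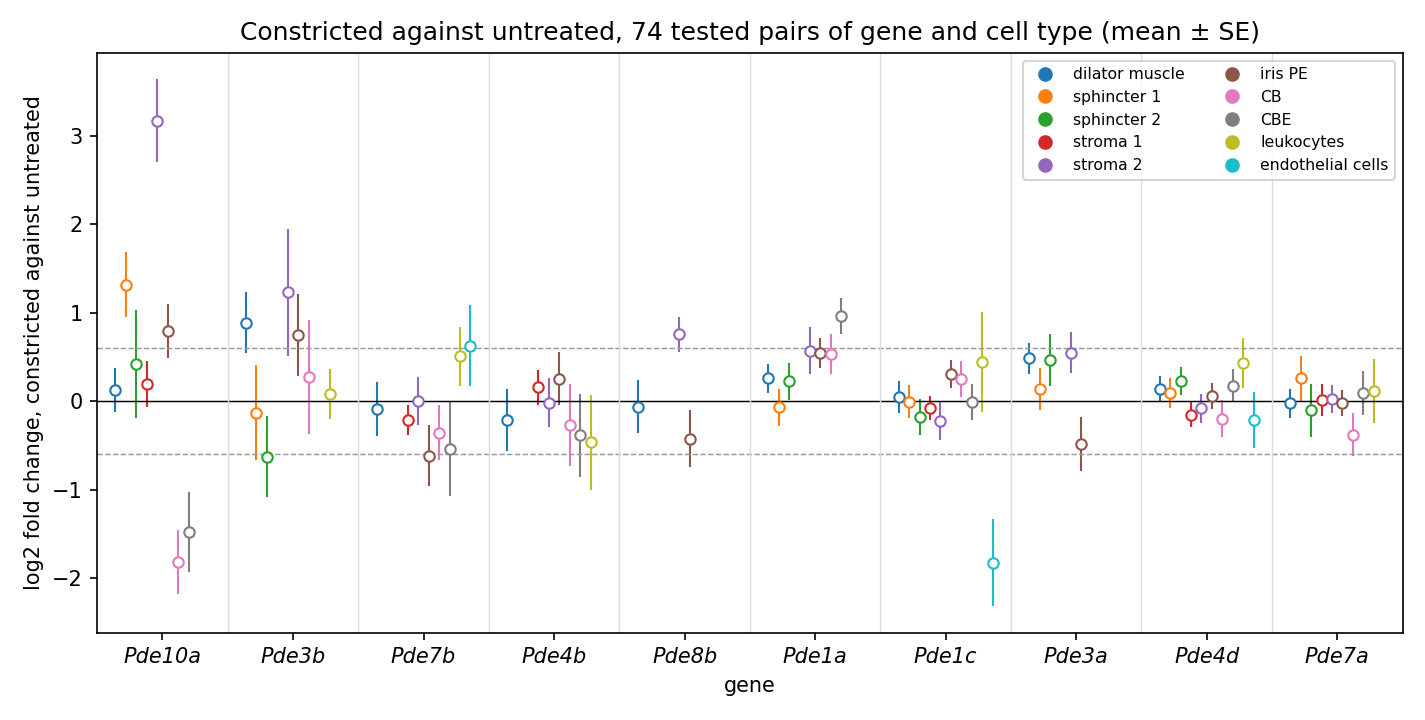
Log2 fold change of constricted against untreated libraries with its standard error, laid out as for dilation (genes on the horizontal axis, cell types by colour). All symbols are open because none of the 74 pairs was called by edgeR (DESeq2 called 2), and Pde10a ranges from -1.82 in CB to 3.18 in stroma 2.

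The other genes of the pathway were taken from lists of known members. Of 13 other phosphodiesterase genes, 11 were tested in at least 1 cell type, and 1 of 50 pairs was called with dilation, beside 1.87% higher and 1.47% lower among all pairs. This was Pde8a, a high affinity cAMP phosphodiesterase, in dilator muscle, which rose from 6.9 to 11.4 CPM untreated to 32.9 and 33.9 CPM (log2 fold change 1.98 ± 0.23, edgeR adjusted p = 0.000187). Their median log2 fold change was -0.0002.

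Of 19 cyclase genes, which encode the enzymes that make cAMP and cGMP, 16 were tested. Of their 90 pairs, 5 were called higher and 3 lower (1.87% and 1.47% among all pairs), and the median was 0.02. Gucy2f, a retinal guanylyl cyclase, fell in dilator muscle from 59.0 to 86.1 CPM to 8.8 and 20.2 CPM (-2.14 ± 0.42, edgeR adjusted p = 0.00499). Gucy1a1, a subunit of the nitric oxide receptor, fell in sphincter 1 from 48.4 to 116 CPM to 24.5 and 25.4 CPM (-1.77 ± 0.38, edgeR adjusted p = 0.0128). Adcy2, an adenylyl cyclase, rose in stroma 2 from 55.6 to 74.4 CPM to 130 and 256 CPM (1.63 ± 0.32, edgeR adjusted p = 0.0234).

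Of 32 genes for the proteins that bind or anchor the response to cAMP and cGMP, 27 were tested, and 9 of 166 pairs were called higher and 3 lower, beside 1.87% and 1.47% among all pairs (median 0.07). Akap6, which anchors protein kinase A at the nuclear envelope of muscle cells, fell in sphincter 1 from 322 to 392 CPM to 57.7 and 84.5 CPM (-2.29 ± 0.30, edgeR adjusted p = 0.000144). In stroma 2, Pkia, a protein kinase A inhibitor, rose from 33.8 to 37.5 CPM to 77.1 and 115 CPM (1.49 ± 0.23, edgeR adjusted p = 0.00833), and Prkar2b, a regulatory subunit of the kinase, from 31.4 to 54.4 CPM to 98.1 and 117 CPM (1.47 ± 0.23, edgeR adjusted p = 0.00846). With constriction, 0 pairs of these 3 lists were called by edgeR or by DESeq2. An unadjusted p under 0.05 in edgeR was reached by 1, 8 and 15 pairs. Nothing is read from these counts, since the share of all genes at that limit is not given here.

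Over the 80 sums of a library and a cell type, the genes most like each member in log2(CPM + 10) were found among genes of at least 20 CPM on average. The sums share libraries and cell types, so the correlations are descriptions. Pde3b was closest to 4933406I18Rik (Pearson r = 0.908) and Gpr183 (0.816), Pde1c to Cacnb4 (0.848) and Daam1 (0.838), Pde1a to Nlgn1 (0.845) and Rassf9 (0.829), and Pde4d to Gnao1 (0.826) and Epb41l4a (0.814). Pde7b was closest to Dlc1 (0.822) and Parvb (0.793), Pde8b to Nampt (0.801) and Ogfrl1 (0.794), and Pde3a to Emx2os (0.796) and Hs3st3b1 (0.796). Pde4b was closest to another member, Pde7b (0.789), and then to Abca1 (0.762). Pde7a had weaker partners, Mlana (0.680) and Gm17484 (0.673), and Pde10a the weakest, Anks1b (0.521) and Chka (0.511).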

How the data were processed

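Nuclei of pooled irises were profiled with the 10x Genomics 3′ protocol. Per the labels and methods, the authors aligned reads with Cell Ranger 3.1.0 to an mm10 index that holds introns, filtered nuclei and assigned cell types from Seurat clusters. The deposited values are raw counts of UMIs per gene and nucleus, and the deposited percent of mitochondrial UMIs per nucleus was read but not used in a test.

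UMIs were summed per library and cell type with Python 3.11.15, since nuclei are not replicates. For each cell type, edgeR 4.0.16 (R 4.3.3) was fitted to all 8 libraries with TMM scaling, filterByExpr and the quasi-likelihood test, and p-values were adjusted by Benjamini-Hochberg over the genes of the cell type. Calls were limited to changes of more than 0.6 in either direction (log2) at an adjusted p below 0.05. The standard error is the log2 fold change divided by the root of F. Differences between cell types were fitted with a term for each library. Scripts were tested on simulated data. Scrublet marked 341 nuclei (0.993%, from 0.13% in stroma 1 to 8.53% in leukocytes) as doublets, which were left out only as an alternative. The alternatives were DESeq2 1.42.0, other size factors, no filter, only the conditions compared, blocks, no doublets, no shared barcodes and leaving out each library.

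The members and lists were chosen with earlier results of these data known. Named were all members, up to 3 called genes with the largest change in each pathway list and comparison, and the 2 genes most correlated with each member. Replicates are separate libraries. No gene was analysed here under the symbols Pde2a, Gucy1a3, Gucy1b3, Cnga4 and Gnat1, whereas Gucy1a1 was analysed under that symbol. Pde7a overlaps Gm16093 (5848 UMIs) on the opposite strand, and the strand setting of the counting is not given in the sources used here. Each SD is taken between libraries and each standard error comes from the fit over libraries, while floors cover counting error only.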

Additional observations from a re-analysis of the deposited data

Results flagged for a closer look

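The effect of constriction on Pde10a differed between cell types in a test of the difference, by 2.66 on the log2 scale between stroma 2 and dilator muscle and by 2.04 between stroma 2 and iris PE. Pde10a in stroma 2 was known beforehand, so the test is descriptive. Neither difference was called without constricted replicate 3, untreated replicate 2 or untreated replicate 3. For 5 further cases all treated libraries lay above the untreated ones in CPM in 1 cell type and below them in another. These differences were not tested. The share of such cases over all genes was not taken, and nothing is read from their count. With constriction, Pde10a had a log2 fold change of 3.18 in stroma 2 and -1.82 in CB. With dilation, Pde1c had 0.97 in iris PE and -0.47 in stroma 1, and Pde8b had 1.58 in stroma 2 and -0.23 in dilator muscle. The values for Pde1a were 0.73 in CB and -0.21 in iris PE, and those for Pde4d were 0.96 in leukocytes and -0.12 in iris PE.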

How the results depend on the processing

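No called pair changed direction under any alternative run, while pairs that were not called did, such as Pde10a in dilator muscle with constriction (-0.21 to 0.37). Of the 21 dilation calls of members, 7 were lost under at least 1 alternative and 14 under none that gave an adjusted p, which DESeq2 did not for Pde3b in CB, sphincter 1 and sphincter 2 and Pde4b in leukocytes; the counts lay between 15 and 24, 15 to 23 when 1 library was left out and 17 with DESeq2. Pde10a in CB was lost with DESeq2 and without dilated replicate 1, untreated replicate 2 or untreated replicate 3, and Pde10a in stroma 2 without untreated replicate 2 or 3. With no filter on low counts, 2 pairs of other phosphodiesterases were called with dilation, 5 of members and 1 of cyclases and effectors with constriction, 299 of all genes with constriction, and 4 differences between cell types. DESeq2 gave 2 member and 70 gene calls with constriction, and fitting only the compared conditions gave 2 and 20. The replicate numbers do not pair the libraries (correlations of same-numbered libraries in dilator muscle ran from -0.027 to 0.602, and of libraries of the same series from 0.133 to 0.602); with the replicate block, 22 member calls and 2 of other phosphodiesterases were made with dilation, and 4 of members, 1 of cyclases and effectors and 76 of all genes with constriction. Blocking on the series of library numbers gave 2 calls of other phosphodiesterases and 5335 of all genes (2840 otherwise) with dilation, and 4 and 87 with constriction for members and all genes (0 and 10 otherwise). Without doublets, 21 genes were called with constriction. For DESeq2, the replicate block and some other alternatives the calls of all genes with dilation are not given here. Nothing is read from the member counts with dilation under the alternatives. Leaving out 1 library gave, with dilation, 8 to 22 calls of cyclases and effectors (20 otherwise) and 1373 to 3268 of all genes; with constriction, 0 to 3 of members, 0 to 1 of cyclases and effectors and 1 to 51 of all genes; and 0 to 2 differences between cell types. A lone dilated library is then assumed to vary like the other groups. Averaging over nuclei gave 3831 CPM for Pde1c in untreated CBE against 3675. The cause was not tested. With 2 dilated libraries and few nuclei in endothelial cells and leukocytes, small differences there were not detectable.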
